A study of Drosophila melanogaster with 14 samples.

Results

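The fragments described here are stretches of DNA between neighboring GATC sites that lie outside annotated genes and carried RNA polymerase II (Pol II) in the stem and progenitor cells of the adult Drosophila midgut but little in its enterocytes. They were selected on the Pol II values themselves. A fragment was taken when it overlapped no gene body of the Release 6 gene table and no Sox21a peak, had a log2 ratio of Dam-Pol II over Dam of at least 1.5 in intestinal stem cells and enteroblasts (ISC/EBs), and had a ratio below 0.5 in enterocytes (ECs). Of 383654 fragments, 94399 were intergenic, 3555 of these touched 1 of 2769 Sox21a peaks, and 688 of the remaining 90844 met both thresholds (0.757%). They are called member fragments below. Their Pol II values are therefore given as a description, with no test.

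The series holds 14 samples of dissected adult gut DNA. Dam fused to Pol II, or Dam alone, was expressed in ISC/EBs with the esg driver or in ECs with the myo driver, with 2 samples of each, and Dam-Sox21a in ISC/EBs was profiled in 3 samples against 3 samples of a Dam control of its own. The labels give neither the age nor the full genotype of the flies. The deposited tracks are averages, 1 per experiment, so the value of a single sample, the spread between samples and the sequencing depth were not determined here, and no p-value is given anywhere. The esg driver marks stem cells and enteroblasts together, so a value cannot be assigned to either of them.

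In targeted DamID, a Dam fusion protein methylates GATC sites near the DNA it contacts, and the driver limits this to the cells of interest without cell sorting. Dam-Pol II therefore marks transcribed gene bodies, but Pol II also contacts DNA at enhancers, at promoters upstream of the annotated start, in unannotated transcripts and past the ends of genes. Intestinal stem cells divide to renew themselves and to produce enteroblasts, which become the absorptive ECs, and esg, a Snail family transcription factor, and Sox21a, a SOX family transcription factor, are both active in these progenitors.

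The tracks followed the labels at several defining genes, but not at all of them. Gene occupancy (the log2 ratios of a gene's fragments, averaged with their overlap as weight) at esg was 3.63 with the esg driver and -0.10 with the myo driver, against 3.46 and -0.43 at Sox21a and 2.38 and -0.26 at mira, a gene of asymmetric stem cell division. The 46 digestive enzyme and marker genes of ECs had a median difference of -1.11 (ISC/EB minus EC). Myo31DF, the gene of the EC driver, had about the same occupancy in both tracks (1.47 and 1.30) and did not separate the populations. Lists for other cells of the gut lay near 0, with a median difference of 0.09 over 16 enteroendocrine genes, 0.01 over 16 visceral muscle genes and 0.03 over 9 hemocyte genes. The part of other cell types in the results was not tested.

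Member fragments had a median Pol II ratio of 1.90 in ISC/EBs, with quartiles of 1.68 and 2.24 and a maximum of 3.75. In ECs their median was -0.16, with quartiles of -0.36 and 0.11, and 470 of the 688 (68.3%) lay below 0, meaning less methylation with Dam-Pol II than with Dam alone. Values below 0 in ECs were also common over all intergenic fragments outside peaks. Their share there was not determined, and the rule itself keeps EC values low, so this count is not read as particular to the members. The median difference between the populations was 2.04 and ranged from 1.07 to 4.22. In ISC/EBs, 277 members reached a ratio of 2 and 22 reached 3. The members covered 258 kb, with lengths from 4 to 1856 bp and a median of 323 bp, compared with 231 bp over all intergenic fragments outside peaks. A total of 163 members were shorter than 100 bp.

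The thresholds cut through a continuous range of values. Within 0.1 of the ISC/EB threshold, 98 members lay inside it and 129 fragments lay outside. The fragment nearest the cut on the inside had a ratio of 1.501 and lay beside lncRNA:CR45726, and the nearest on the outside had 1.499 and lay beside Act79B. At the EC threshold, 53 members lay within 0.1 inside and 49 fragments within 0.1 outside. Of all 1480 intergenic fragments outside peaks that reached 1.5 in ISC/EBs, 46.5% were below 0.5 in ECs.

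**Figure D1:**
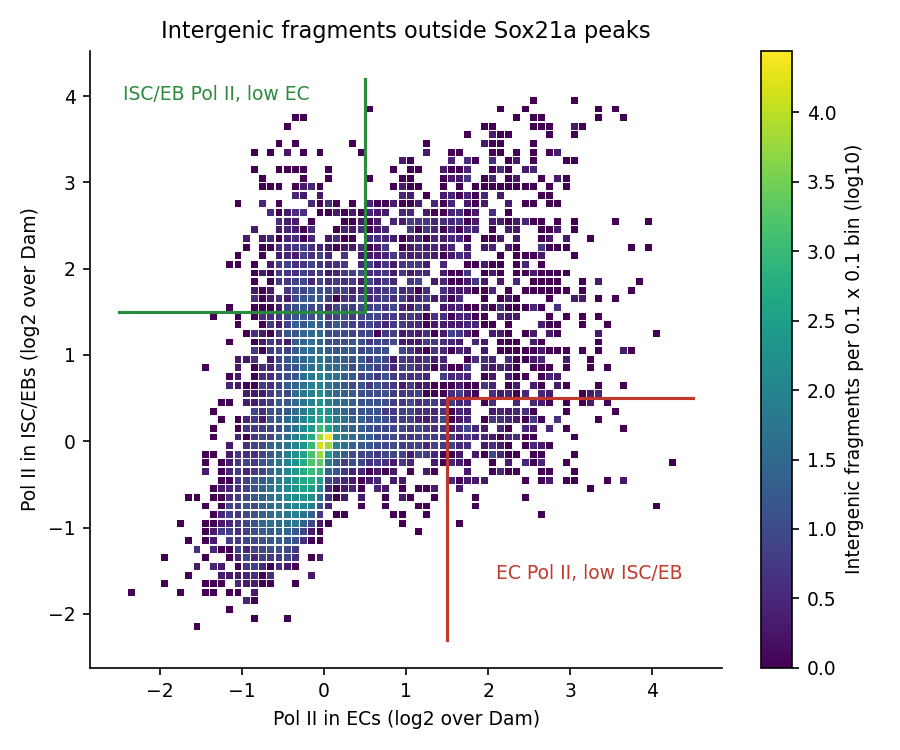
Pol II of the 90844 intergenic fragments outside Sox21a peaks in ECs (horizontal, log2 over Dam) and ISC/EBs (vertical, log2 over Dam), binned in squares of 0.1 by 0.1 and colored by the log10 number of fragments. The green corner holds the 688 members and the red corner the 263 fragments with the populations exchanged, and neither is separated from the rest by a gap.

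With the populations exchanged, 263 fragments met the same thresholds (0.29%), which was 30.0% of the 877 that reached 1.5 in ECs. These EC fragments serve as the counterpart of the members below. The numbers changed with the scale of the tracks. The ISC/EB track varied more than the EC track (SD over all fragments 0.856 and 0.652), and when the EC track was given the distribution of the ISC/EB track, 525 fragments met the member rule and 533 the exchanged rule. Giving both tracks the same distribution brings the numbers closer by construction, so a difference in scale and a larger number of such fragments in ISC/EBs cannot be told apart.

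Members were a minority of the fragments with this pattern. Genome-wide, 10693 fragments had the same Pol II values, of which 8927 overlapped a gene body, 1078 were intergenic but touched a Sox21a peak, and 688 were the members. Members made up 1.92% of intergenic fragments on chromosome 4 (12 of 624), 1.06% on 3R (176), 1.04% on 2L (145), 0.722% on 3L (159), 0.688% on 2R (129) and 0.550% on X (67). None of the 6690 fragments on Y was a member. Much of the background carried no information, since 24855 intergenic fragments (27.4%) were exactly 0 in both Pol II tracks, and members were 1.04% of the 65989 others.

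Many member fragments lay side by side. Of the 688, 447 (65.0%) touched another member, and members no more than 1000 bp apart were joined into 390 domains. There were 217 domains of a single fragment, 101 of 2, 40 of 3, 19 of 4 and 13 of 5 or more. The 72 domains of 3 or more held 269 members (39.1%), with a median span of 1080.5 bp and a longest span of 3372 bp. In the EC counterpart, 68.4% of fragments touched another. It formed 125 domains, and 51.3% of its fragments were in domains of 3 or more. No such shares were determined over all intergenic fragments outside peaks, so the clustering is not read as particular to the members. Touching fragments share methylated GATC sites and had correlated values, with a Pearson's r of 0.776 over all touching intergenic fragments in the ISC/EB track, so fragments of a domain are not separate observations.

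Domains had soft edges. Fragments next to a member that were not members themselves had a median ISC/EB ratio of 1.10 (n = 807), those at a distance of 2 fragments had 0.72 (n = 1110) and those at 3 fragments had 0.48 (n = 1234). In ECs the same fragments stayed near 0, with medians from -0.04 to -0.03. Most domains were isolated from one another, with a median gap of 140206 bp between neighboring domains, but 63 of 384 gaps (16.4%) were at most 10 kb.

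Most runs of the pattern that held a member did not reach a gene. When unbroken runs of fragments with the member Pol II values were traced through genes and peaks, the members fell into 410 runs. Of these, 315 (76.8%) stayed in intergenic DNA and reached neither a gene nor a peak, 77 (18.8%) ran into a gene body, 28 reached a peak, and 10 of these did both. The runs that entered a gene held 114 members. A run ended at any fragment that failed either threshold, so Pol II in ISC/EBs could continue past its end. Beside CG13252, the fragment at the gene edge ended the run with 2.41 in ISC/EBs and 0.59 in ECs.

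Members lay closer to genes than other intergenic fragments. The median gap to the nearest gene was 1542 bp for members, with quartiles of 403.5 and 3844 bp. It was 5540 bp for all intergenic fragments outside peaks and 616 bp for the EC counterpart. Without the fragments at 0 in both Pol II tracks, the median over intergenic fragments outside peaks was 3671 bp. The share of fragments that were members fell with distance, from 1.74% within 1 kb (282 of 16228) to 0.958% at 1 to 5 kb (260), 0.513% at 5 to 20 kb (124) and 0.0945% beyond 20 kb (22). The order was the same when fragments at 0 in both tracks were left out, with shares of 1.89%, 1.12%, 0.705% and 0.214%. The gene table gives no strand, so members upstream of a start cannot be told apart from members past an end. A gene without a row in the table used here would count as intergenic DNA, and when only fragments within 10000 bp of a gene were kept, 630 members remained with a median gap of 1212 bp.

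**Figure D2:**
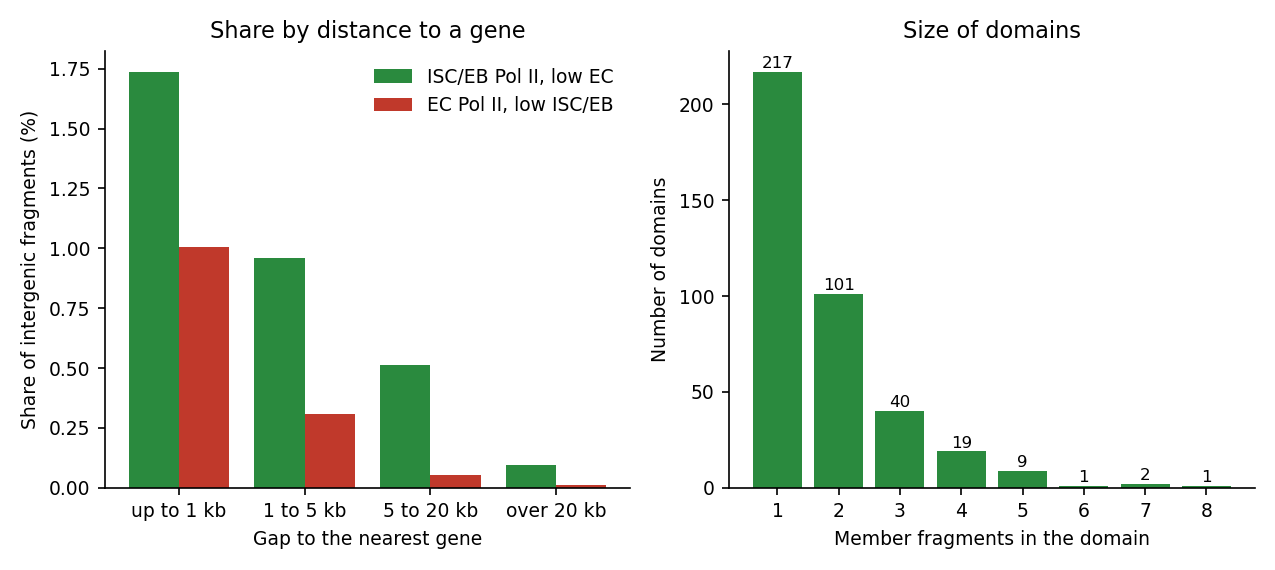
Left, percentage of intergenic fragments outside Sox21a peaks that met the member rule (green) or the exchanged rule (red), by gap to the nearest gene. Right, number of domains by the number of member fragments in each; shares fell from 1.74% within 1 kb to 0.0945% beyond 20 kb, and 217 of 390 domains were single fragments.

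The nearest genes of the members were 379 distinct genes, or 2.13% of the 17796 genes in the table. They included 271 protein-coding genes, 91 long noncoding RNA genes and 7 tRNA genes. A long noncoding RNA gene was nearest to 27.2% of members and to 21.9% of all intergenic fragments outside peaks. A total of 225 genes were nearest to 1 member each, and 79 were nearest to 3 or more.

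Pol II over these genes was also higher in ISC/EBs, although by less than at the members. Their median gene occupancy was 0.55 in ISC/EBs and -0.03 in ECs. The median difference was 0.52, compared with 0.15 over all 17791 genes with a fragment and 0.01 over the 6181 genes nearest to any intergenic fragment outside peaks. A difference of 1 or more was found for 93 of the 379 (24.5%), compared with 9.89% of all genes and 5.52% of genes nearest to any intergenic fragment. A single gene of the 379 had a difference of -1 or less. After the EC track was given the distribution of the ISC/EB track, 24.6% of the nearest genes and 4.56% of all genes had a difference of 1 or more. The comparison uses the same tracks as the selection of the members, so it is given as a description.

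The share of nearest genes with a difference of 1 or more was lower at larger distances. Of the genes nearest to members within 1 kb, 68 of 210 (32.4%) had a difference of 1 or more, and the share was 22.1% at 1 to 5 kb (33 of 149), 13.8% at 5 to 20 kb (8 of 58) and 8.33% beyond 20 kb, where it rested on 1 of 12 genes. For genes nearest to any intergenic fragment outside peaks, the shares were 5.05%, 5.15%, 4.13% and 2.19% in the same classes. Protein-coding genes (66 of 271, 24.4%) and long noncoding RNA genes (23 of 91, 25.3%) had similar shares. Taking the protein-coding genes on both sides of each domain, 138 of 390 domains (35.4%) had at least 1 flanking gene with a difference of 1 or more, 29 had such genes on both sides, and 133 (34.1%) had a difference below 0.5 on both sides. Counted by fragment, 257 of the 688 members (37.4%) had at least 1 flanking gene with a difference of 1 or more, compared with 5.66% of all intergenic fragments outside peaks. The 138 nearest genes of the EC counterpart had a median difference of -0.86, and 63 of them (45.7%) were at -1 or less.

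**Figure D3:**
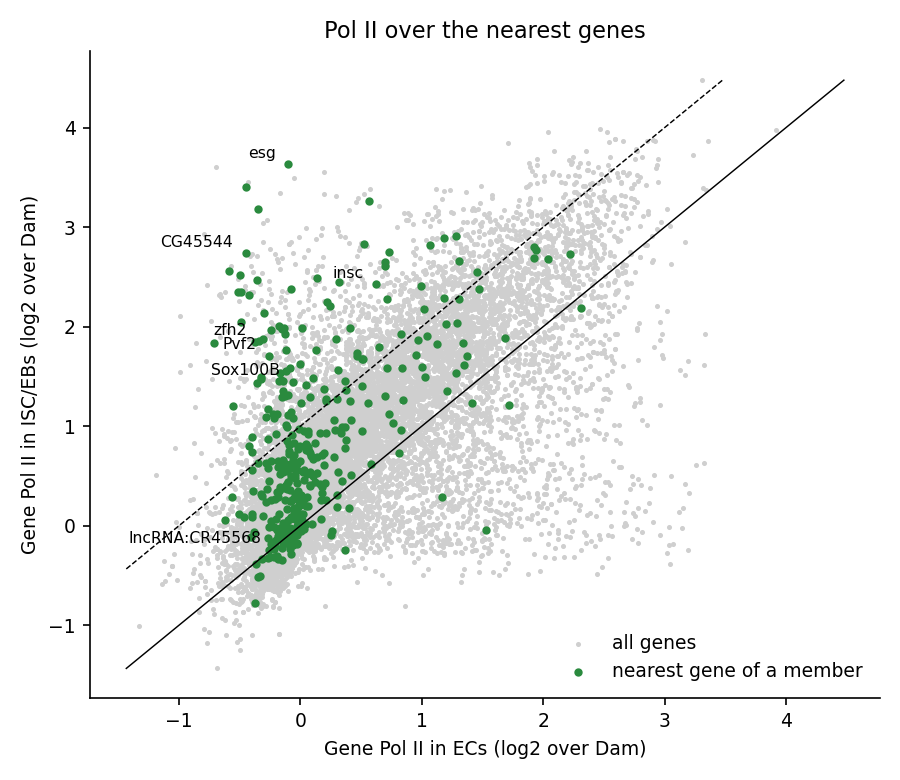
Gene Pol II occupancy in ECs (horizontal) and ISC/EBs (vertical), both as mean log2 over Dam, for all 17791 genes (grey) and the 379 genes nearest to a member (green). The solid line marks equal values and the dashed line a difference of 1; 93 of the nearest genes lie on or above the dashed line, while many others, such as lncRNA:CR45568, lie near the solid line.

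The domain with the most fragments lay beside CG14506. It held 8 members over chr3R:29289750-29292508, with ISC/EB ratios from 2.11 to 3.38 and EC ratios from -0.79 to -0.09. The gene itself, 1235 bp away, had little Pol II in either population (0.29 and -0.19). Fragments between the last member and the gene had ISC/EB ratios up to 2.30. Those that met both thresholds were not members because they touched a Sox21a peak. The protein-coding gene on the other side, CG45544, lay 32325 bp away and had 2.74 in ISC/EBs and -0.45 in ECs. Next to CG45544 lies stg, which encodes the Cdc25 phosphatase that drives entry into mitosis, with 1.07 in ISC/EBs and -0.04 in ECs.

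The whole interval between CG45544 and CG14506 (36.3 kb) was rich in members, with 16 of its 128 eligible fragments (12.5%) in 5 domains, interspersed with 5 Sox21a peaks. A single member 205 bp from CG45544 had 1.80 in ISC/EBs and -0.14 in ECs. This and the other intervals described below were chosen after their values were seen. The member with the largest difference between the populations was in this interval, with 3.37 in ISC/EBs and -0.84 in ECs (chr3R:29267286-29267595). It touched another with 3.48 and -0.59. Their nearest gene, lncRNA:CR45568, lay over 8 kb away and had no Pol II above Dam in either population (-0.23 and -0.22). On the far side of CG14506, 5 of 82 fragments before Cnx99A, the calnexin gene, were members, with ISC/EB ratios from 1.52 to 1.93.

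Other large domains adjoined a gene with more Pol II in ISC/EBs. CG13252 had 7 members that began 29 bp from the gene (chr3L:20744537-20747867), with a mean ISC/EB ratio of 2.34, and the gene had 2.25 in ISC/EBs and 0.22 in ECs. CG13002 had 6 members at 64 bp (chrX:16890701-16891930) with a mean of 2.20, and the gene had 1.54 and -0.17. The 5 members near Ppa, an F-box protein gene, averaged 1.98 and lay between Ppa (1.56 and 0.31) and RYBP, a Polycomb-associated gene (1.81 and 0.37). Beside insc, an adaptor gene of asymmetric cell division, 4 members at 38 bp had ratios from 2.60 to 2.91, and the gene had 2.43 and 0.62. In each of these the members and the gene were high in the same population.

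In other large domains the nearest gene differed less or not at all. The 7 members beside lncRNA:CR44537 averaged 1.80, and that gene had 0.63 in ISC/EBs and -0.28 in ECs. The 5 members near CG43402 averaged 2.55, and CG43402 had 0.62 and -0.03. The 5 members 6091 bp from lncRNA:CR45052 ranged from 1.77 to 2.43, while lncRNA:CR45052 had -0.03 in both populations and the flanking coding genes CG11550 and CG42693 had differences of 0.52 and -0.05. For 3 further domains of 5 members, the nearest gene was a long noncoding RNA gene and a flanking coding gene differed more. Beside lncRNA:CR45439 this was CG10479 (difference 2.16), beside lncRNA:CR44309 it was CG43815 (2.71), and beside lncRNA:CR45293 it was Tim17b2 (1.97), a mitochondrial import gene. The value of CG43815, which lay 15986 bp from its domain, rests on 1 fragment, and that of Tim17b2 on 3. On the other side of the lncRNA:CR44309 domain, drm was nearer (10687 bp), with a difference of 0.97 over 33 fragments.

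**Figure D4:**
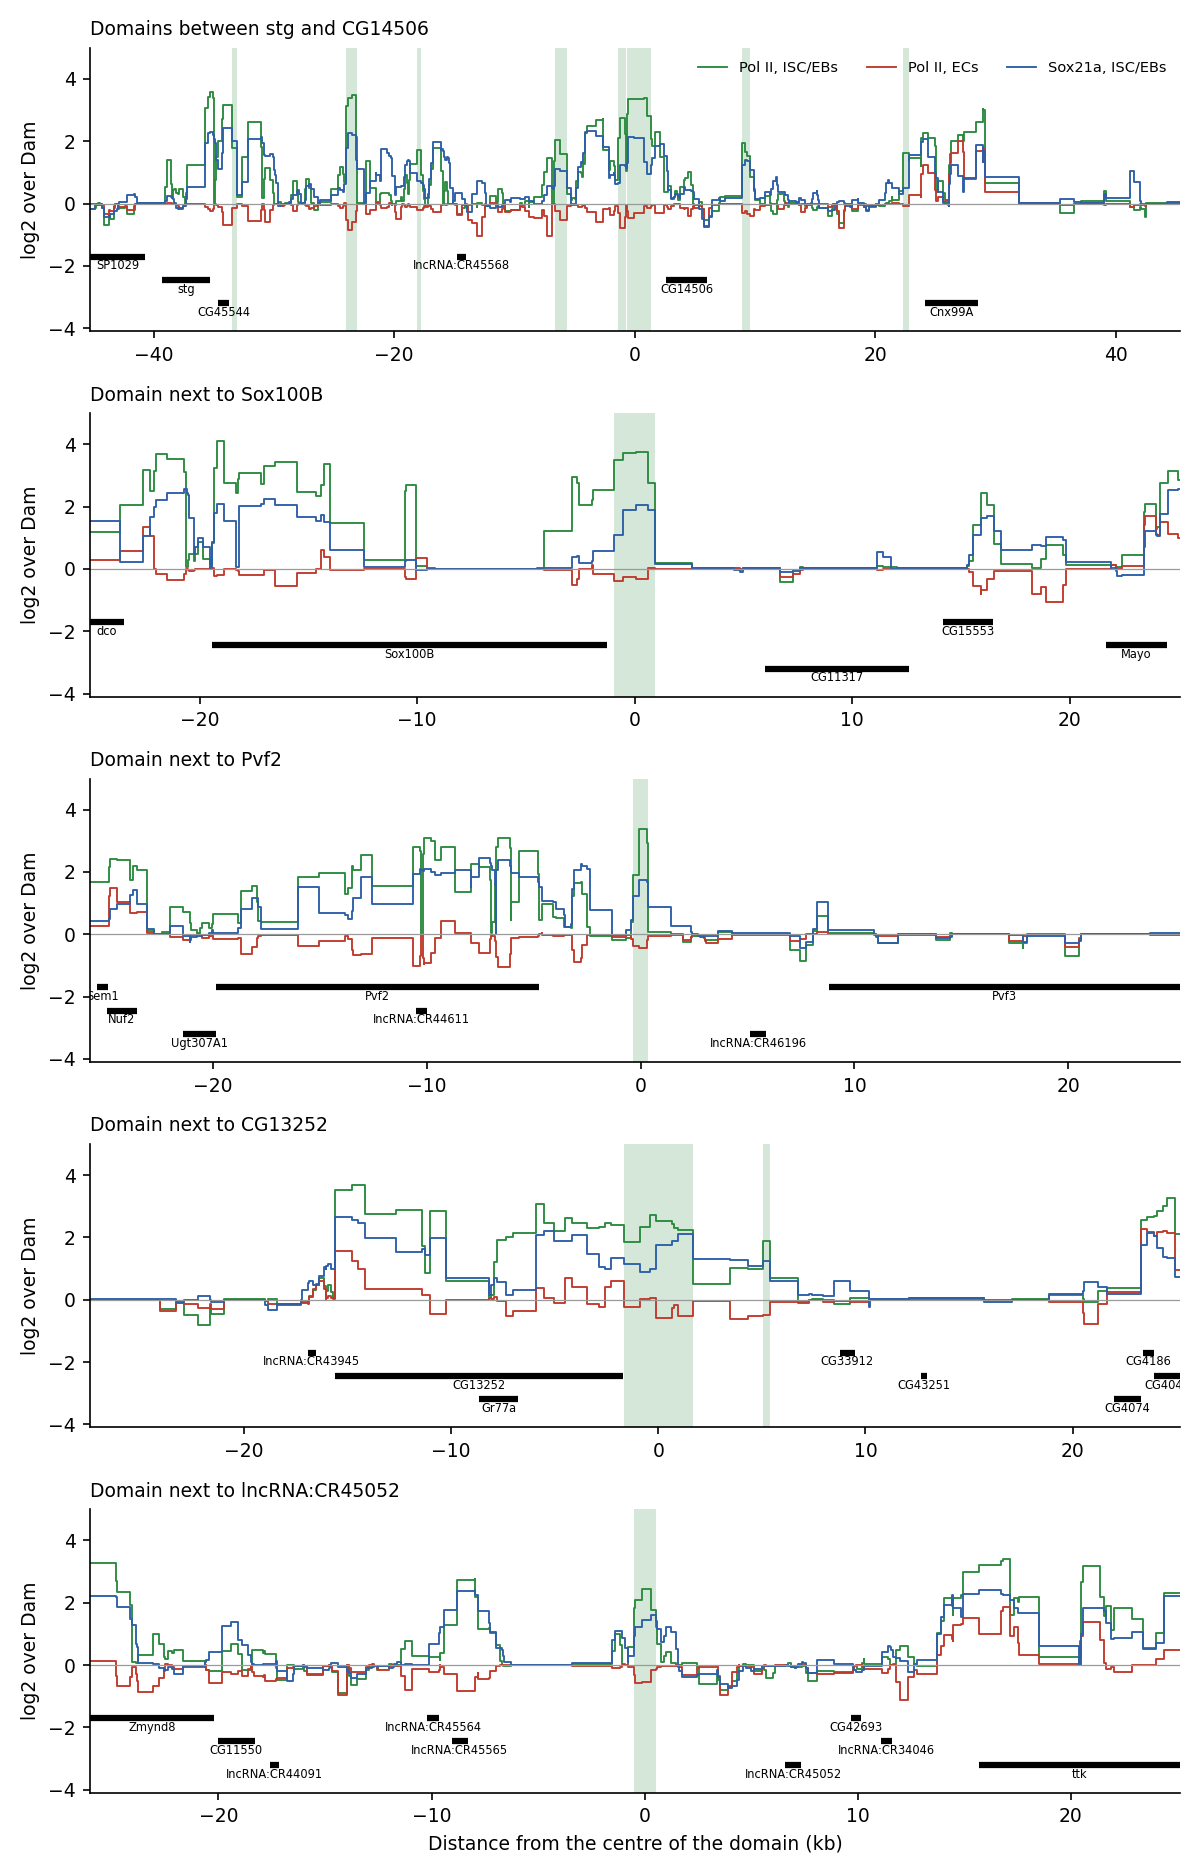
Pol II in ISC/EBs (green), Pol II in ECs (red) and Sox21a in ISC/EBs (blue), each as log2 over Dam, against distance from the centre of a domain in kb, with members shaded and gene bodies as black bars. Beside CG13252 the ISC/EB signal continues into the gene. At the domain of 8 members beside CG14506 it continues past the last member into a Sox21a peak, with ratios up to 2.30, and falls to 0.38 at the gene edge. The domain beside lncRNA:CR45052 stands apart from the nearest gene. The EC track stays near or below 0 at the members in all 5 panels.

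Several genes of the progenitor program had members beside them. The gene lists used here were put together with results of these data known, and the transcription factor list was chosen by the study on these samples, so its count is no independent evidence. As background, 1.94% of the 13935 protein-coding genes were nearest to a member and 4.34% (605) were nearest to or flanked one. This background takes no account of how many intergenic fragments lie beside a gene, here and for the lists below. Whether the lists differ from other genes in this respect was not tested. Of 16 ISC/EB markers, 4 were the nearest gene of a member (esg, Delta, Pvf2 and robo2). Of 100 transcription factors with ISC/EB Pol II, 7 were nearest genes (Sox100B, fkh, drm, zfh2, Eip93F, sbb and esg). The shares were 25% and 7%, or 37.5% and 10% with flanking genes included. None of the 46 EC digestive enzyme and marker genes was the nearest or a flanking gene of a member, a count not far from what a share of 4.34% gives for a list of this length.

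Among the transcription factor genes, Sox100B, a SoxE family gene, had the member with the highest ISC/EB ratio. Its 4 members formed a single domain from 354 bp beyond the gene, with ISC/EB ratios of 3.49, 3.72, 3.75 and 2.77 and EC ratios of -0.40, -0.26, -0.31 and 0.03. They took up 4 of the 8 fragments between Sox100B and CG11317, and Sox100B itself had 1.45 in ISC/EBs and -0.06 in ECs. Beside zfh2, a zinc finger homeodomain gene on chromosome 4, 3 members had ratios from 1.83 to 1.87, and the gene had 1.86 and -0.34. The 8 members beside Eip93F, an ecdysone-induced gene, began 8656 bp away, and the gene had 0.71 and 0.17. Near fkh, a FoxA family gene (1.88 and 0.30), and sbb, a corepressor gene (0.82 and 0.05), a single member each was nearest to the gene.

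The interval around esg was large. Its share of members was above the 0.757% over all intergenic fragments outside peaks, but below the 12.5% between CG45544 and CG14506. Between nht and lace, 180.2 kb that also contain the Snail family genes wor and sna, 12 of 465 eligible fragments (2.58%) were members, in 7 domains beside 10 Sox21a peaks. The member nearest to esg lay 1141 bp away and had 1.78 in ISC/EBs and -0.08 in ECs. A member 1134 bp from wor had 1.74 and -0.85, although wor had no Pol II above Dam (-0.10 and -0.19). Snail itself (sna) had 0.23 and -0.02 and was nearest to no member.

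Members also flanked genes of secreted ligands. Of 36 ligand genes, 3 were nearest genes (Delta, Pvf2 and vn) and 4 more flanked a member (Pvf3, upd1, upd2 and upd3). This was 19.4% in all, beside 4.34% of protein-coding genes. Pvf2 and Pvf3 lay beside the same 3 members, as did upd3 and upd1, so these counts are not independent. Delta, the Notch ligand of the stem cells, had 8 members in the intergenic DNA on its 2 sides, with ISC/EB ratios from 1.52 to 2.46 and EC ratios from -0.82 to -0.27, and the gene had 1.45 and -0.15. Of these, 4 formed a domain 10455 bp from Delta. Between Pvf2 and Pvf3, ligand genes of the PDGF/VEGF type, 3 touching members had 1.90, 3.38 and 2.94 in ISC/EBs and -0.38, -0.45 and -0.19 in ECs. Pvf2, 4382 bp from them, had 1.71 in ISC/EBs and -0.26 in ECs, whereas Pvf3, 8432 bp away, had -0.06 and -0.08.

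The 3 upd genes encode ligands of JAK/STAT signaling. A domain of 3 members between upd3 and upd1 had ISC/EB ratios from 1.68 to 2.39, with upd3 at 0.83 and upd1 at -0.09 in ISC/EBs. The 2 members nearest to vn, a neuregulin-like EGFR ligand gene, had 1.68 and 1.73, and vn had 0.56 in ISC/EBs and 0.03 in ECs. Of 22 receptor genes, 2 (9.09%) were nearest genes and no other flanked a member. These were robo2, a receptor of Slit (2.14 in ISC/EBs and -0.30 in ECs), and ptc, the Hedgehog receptor, whose occupancy did not favor ISC/EBs (0.73 and 0.81).

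Notch signaling acts on the E(spl) complex, a cluster of neighboring genes for transcriptional repressors and Bearded family proteins. Of the 11 E(spl) genes examined, 5 were nearest to a member and 9 (81.8%) were nearest to or flanked one. E(spl)m5-HLH was nearest to 4 members, and the 6 members on its 2 sides had ISC/EB ratios from 1.54 to 2.78. Gene occupancy in ISC/EBs ranged from 0.20 at E(spl)m6-BFM to 2.69 at E(spl)mbeta-HLH among these 9 genes. The genes are packed together and share intergenic fragments, so their counts are not independent.

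Of 30 genes for cell cycle and replication proteins, 2 (6.67%) were nearest genes and no other flanked a member. These were Incenp, a chromosomal passenger gene (0.87 in ISC/EBs and -0.27 in ECs), and dap, which encodes a Cdk inhibitor (1.12 and 0.73). Markers of other cell types also lay beside members. Of 16 enteroendocrine genes none was a nearest gene and 2 (12.5%), Tk and CCHa2, flanked a member. The Tk member had 2.25 in ISC/EBs and -0.33 in ECs, while Tk itself had 0.06 and -0.04. Of 16 visceral muscle genes, 1 (6.25%), how, was nearest to 3 members (1.80 to 2.35 in ISC/EBs, 0.29 to 0.38 in ECs). Of 9 hemocyte genes, 1 (11.1%), lz, was nearest to 2 (up to 2.54 in ISC/EBs), while the gene itself lay at -0.11 and -0.14.

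A further interval with high members lay between plh and corto, a chromatin factor gene. Here 10 of 82 eligible fragments (12.2%) were members, in 5 domains. The member with 3.69 in ISC/EBs and -0.45 in ECs (chr3R:5023373-5023644) lay 1899 bp from lncRNA:CR45585, which had 0.41 and -0.12. Another, 5898 bp from lncRNA:CR46352, had 3.33 and -0.70. Both flanking coding genes had more Pol II in ISC/EBs, plh by 1.61 and corto by 1.04 on the log2 scale. On 2L, the member nearest to lncRNA:CR44606 had 3.14 and -0.84, while that gene had 0.022 and -0.0035.

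Sox21a signal was high at the members although peaks had been removed by the rule. This track comes from separate samples with their own Dam control, but from the same driver cells. The members had a median Sox21a ratio of 1.34, with quartiles of 0.995 and 1.72, and 515 of them (74.9%) reached 1, compared with a median of 0 and 3.13% over all intergenic fragments outside peaks. The median was 0.21 at the EC counterpart, where 7.98% reached 1. It was 1.27 at the 371 fragments that reached 1.5 in both populations. High Sox21a signal thus went with Pol II in ISC/EBs, whether or not Pol II was also high in ECs. Only 7 members had a Sox21a ratio of 0 or less.

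The Sox21a ratio rose with Pol II in ISC/EBs on both sides of the threshold. Among fragments below 0.5 in ECs, the median was 0.63 at an ISC/EB ratio of 0.5 to 1, 0.94 at 1 to 1.5, 1.23 at 1.5 to 2, 1.42 at 2 to 2.5, 1.71 at 2.5 to 3 and 2.05 at 3 or more. Over all 90844 intergenic fragments outside peaks, Pearson's r was 0.691 between Sox21a and Pol II in ISC/EBs and 0.309 between Sox21a and Pol II in ECs. Over the members, r between Sox21a and Pol II in ISC/EBs was 0.372. The fragments of a track share its libraries, the 2 ISC/EB tracks share the driver, and neighboring fragments are correlated, so these are descriptions.

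**Figure D5:**
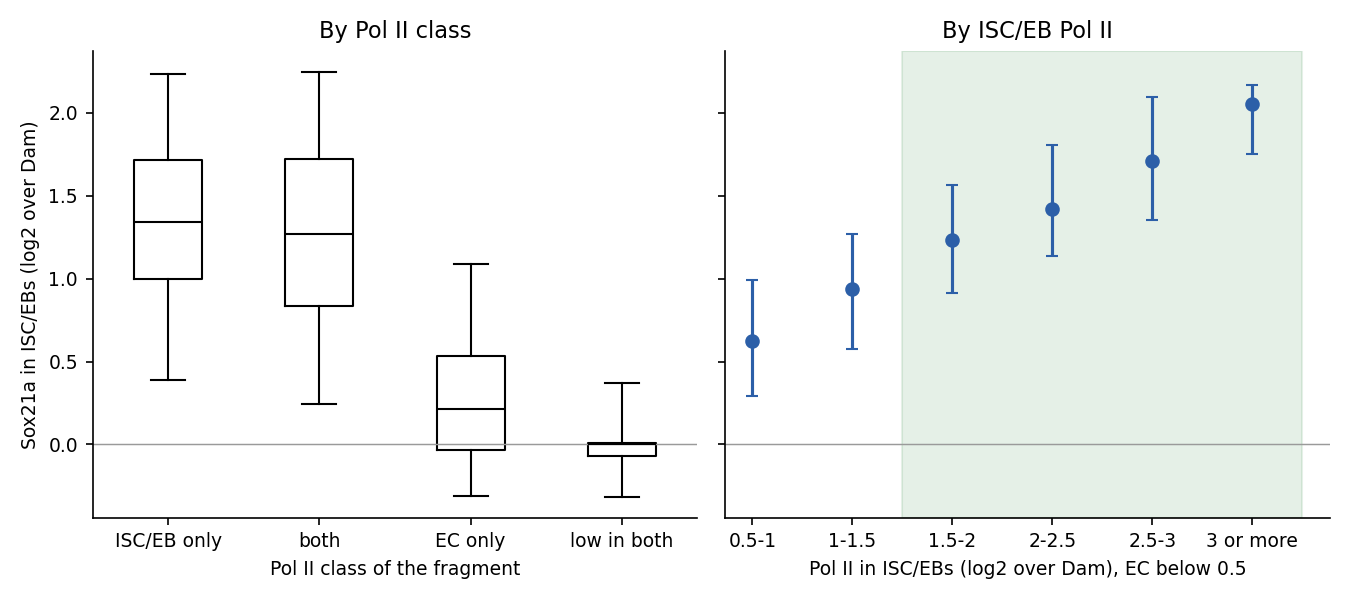
Sox21a in ISC/EBs (log2 over Dam) at intergenic fragments outside peaks. Left, by Pol II class, with boxes for the quartiles, lines for the medians and whiskers from the 5th to the 95th percentile; right, medians and quartiles by Pol II in ISC/EBs for fragments below 0.5 in ECs, with members shaded. The median rose from 0.63 to 2.05 across the bins.

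The signal was not limited to the surroundings of peaks. The median gap from a member to the nearest Sox21a peak was 9167 bp, compared with 56582.5 bp for all intergenic fragments outside peaks. Within 1 kb of a peak lay 98 members (14.2%), compared with 1.47%. Without the fragments at 0 in both Pol II tracks, the background values were 46323 bp and 1.92%. However, 329 members (47.8%) were over 10 kb from any peak, and their median Sox21a ratio was 1.37. Of all intergenic fragments outside peaks, 79.9% were that far from a peak, with a median of 0. Sox21a was also as high at members far from genes as at those close to them, with medians of 1.24 within 1 kb, 1.39 at 1 to 5 kb, 1.46 at 5 to 20 kb and 1.57 beyond 20 kb.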

How the data were processed

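Targeted DamID libraries from adult midguts were sequenced by the authors, who deposited 1 track per experiment with the log2 ratio of Dam fusion to Dam for each GATC fragment, as an average of the samples. Deposited Sox21a peaks carry a score, but only their positions were used. Not given in the sources used here are the aligner, the normalization and the depth. Averaging hides the spread between samples, and how well short fragments were measured was not tested.

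Release 6 gene bodies came from the RefSeq gene table. The build of the tracks was inferred from chromosome names and positions. Any overlap of 1 bp counted. Members within 1000 bp were joined into domains. Gaps run from the fragment edge to the nearest gene body, and gene occupancy is the mean log2 ratio weighted by overlap. Named genes were those nearest to the 10 domains with the most fragments, to the 10 members with the largest difference, list genes nearest to a domain, and the driver loci. Other named genes flank these or were chosen after their values were seen. The members, lists and this rule were chosen with earlier results of these data known. Overlaps, distances, gene means and domains were tested on simulated data. A planned motif search and the printing of sequences need a genome sequence, which was not used here. Python 3.11.15, numpy 2.4.6, pandas 2.3.3 and matplotlib 3.10.9 were used.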

Additional observations from a re-analysis of the deposited data

How the results depend on the processing

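Each result was recomputed under alternative settings, and 47 of 76 values were labelled as close to those reported, while 29 were labelled as moved. For shares and medians, close meant inside a range around the reported value. For the share in domains of 3 or more, this was 35.4% to 42.9%. Such ranges do not measure a spread between samples, and neighboring fragments are correlated. Counts had a wider allowance, so 549 domains were labelled as close to 390 and 525 members as close to 688. With the ISC/EB threshold lowered by 0.25, there were 1070 members, 49.25% of them in domains of 3 or more, with a median Sox21a ratio of 1.224. With a threshold of 2.0, there were 277 members in 172 domains, 28.52% in domains of 3 or more, 29.76% of nearest genes with a difference of 1 or more, and a Sox21a median of 1.557. With Sox21a peaks kept, there were 1766 members in 633 domains, 67.89% in domains of 3 or more, 31.61% of nearest genes with the difference, and a Sox21a median of 1.798. At least 1000 bp from a gene, there were 406 members in 220 domains, a median gap of 3152 bp, 18.41% of nearest genes with the difference and a Sox21a median of 1.407. With fragments of at least 200 bp, there were 450 members, 18.89% in domains of 3 or more, and a median gap of 1764 bp. With protein-coding genes only, the share in domains of 3 or more was 42.98% and the median gap 2159 bp. Joining only touching fragments gave a share of 35.32%, and gaps up to 5000 bp gave 48.4%. The median gap was 1213 bp with an EC threshold of 0.75 and 1788 bp after quantile normalization of the EC track. Chosen after seeing the data, a limit of 10000 bp from a gene gave a median gap of 1212 bp, and quantile normalization gave an EC counterpart of 533. The causes of these shifts were not tested beyond what the settings themselves change. The Sox21a median of the members was between 1.224 and 1.798 in the 11 settings in which it was computed.

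No paired analysis was possible because the tracks analysed here are averages over samples. For the same reason no replicate was left out, and the sequencing files of the single samples were not used here. The planned motif search was not run. Depth, strand and the spread between samples limit every value.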

Other observations

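A few members lay far from any gene near chromosome ends. Beside CG9380 on 2R, a domain of 4 members at 26154 bp from the gene had ISC/EB ratios from 1.54 to 2.67 and EC ratios from 0.11 to 0.39, and CG9380 had 0.02 in ISC/EBs. On chromosome 4, 2 members 34491 bp from Cadps, a gene of dense core vesicle release, had 1.55 and 1.82 in ISC/EBs and 0.12 and 0.28 in ECs, and Cadps had 0.10. In both, the EC values were above the median of all members (-0.16).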
